A study of Arabidopsis thaliana with 8 samples.

Results

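The 41 nuclear genes described here encode the light-harvesting antennae, the subunits of photosystem I and photosystem II, the carriers PETC, PETE1 and PETE2, and the Rubisco subunit RBCS1A of Arabidopsis thaliana. They were taken by locus number from the gene names of the array, where 25643 loci had a usable probe, and 22381 of these were tested. Of the 41, 19 are antenna genes (13 LHCB and 6 LHCA), 18 are core subunits (10 of photosystem I and 8 of photosystem II) and 4 are the carriers and RBCS1A. All 41 were well above background on all 8 arrays, so none entered through the strain in which it was high.

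RNA, given as from leaves, came from 8 diploid strains, each on 1 one-colour array. ExTQ002, ExTQ003, ExTQ013 and ExTQ015 lay on slide 1, and ExTQ005, ExTQ016, ExTQ018 and ExTQ019 on slide 2, and as each slide had a scan of its own, slide and scan cannot be told apart. Every strain is progeny of a plant that carried the gene for the restriction enzyme MseI and was heated for 3 h at 33 °C, which switches the enzyme on so that it cuts the chromosomes (Ex-TAQing). The plants grew for 4 weeks on medium with sucrose under 16 h of light and 8 h of darkness, and all strains share this history, with no unheated or MseI-free strain among them. The sources used here do not give the ecotype, the promoter of MseI or whether an RNA came from a single plant. The titles and descriptions number the strains differently (titles are used), and the molecule field names genomic DNA although the protocols describe RNA. With 1 array a strain, p-values measure only the spread between these samples.

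In chloroplasts, antenna proteins bind chlorophyll and pass excitation to the reaction centres of both photosystems. Photosystem II takes electrons from water, the cytochrome b6f complex and plastocyanin carry them on, and photosystem I lifts them to ferredoxin. The reaction-centre proteins themselves are encoded in the plastid, and the nuclear genes rise with light and fall in ageing leaves.

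A level is the log2 processed intensity minus the 75th percentile of its own array. It also depends on the probe, so levels are compared between strains for a gene and never between genes. The brightest reading of any member was 5.61 on the log10 scale, under the top of the linear range that the file headers give for the spike-in controls (5.66 to 5.76 over the arrays), and no member was saturated. The plastid-encoded subunits were not analysed here.

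The first question the design allows is whether a strain stood apart in these genes. No member was called in any strain, under the main or any alternative setting. Calls needed both a size of at least 1 log2 unit against the mean of the 7 others and a Benjamini-Hochberg adjusted p under 0.05 over all genes tested (limma). Among all genes tested, 10.7% were called in ExTQ019, 1.39% in ExTQ016, 0.0849% in ExTQ002, 0.0536% in ExTQ015, 0.00447% in ExTQ005 and 0% in ExTQ013, ExTQ003 and ExTQ018. The most calls over the array were thus in ExTQ019. The members were chosen with earlier results of these data known, and close relatives that fell in ExTQ019 are outside the 41. The members' count in that strain is therefore not read against that of the array. The smallest adjusted p of a member was 0.0765, for PSAH2 in ExTQ019.

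Of the 328 comparisons of a member in a strain, 9 had an unadjusted p under 0.05 by limma. Of these, 5 were members lower in ExTQ013, where 0.59% of all genes were lower at that p. In ExTQ003 there was 1, higher, where 0.599% of all genes were higher. In ExTQ019 there were 3, where 32.2% of all genes passed. Because of how the members were chosen, their count in that strain is again not read against that of the array. The 95% interval of the difference lay wholly within 1 log2 unit of 0 in 250 of the 328. By strain this held for 27 members in ExTQ013 to 34 in ExTQ016 of the 41, whereas of all genes it held for 41% in ExTQ002, 43% in ExTQ013, 43.6% in ExTQ015, 42.2% in ExTQ003, 43.3% in ExTQ005, 42.9% in ExTQ016, 43.9% in ExTQ018 and 38.1% in ExTQ019. A value past 1 log2 unit was measured in 4 of the 328, namely LHCA6 in ExTQ002 and ExTQ013 and LHCB2.3 in ExTQ013 and ExTQ019. The fit takes the spread of a single strain to be that of the rest, and an exact permutation of 1 strain against 7 cannot give a p under 0.125.

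**Figure D1:**
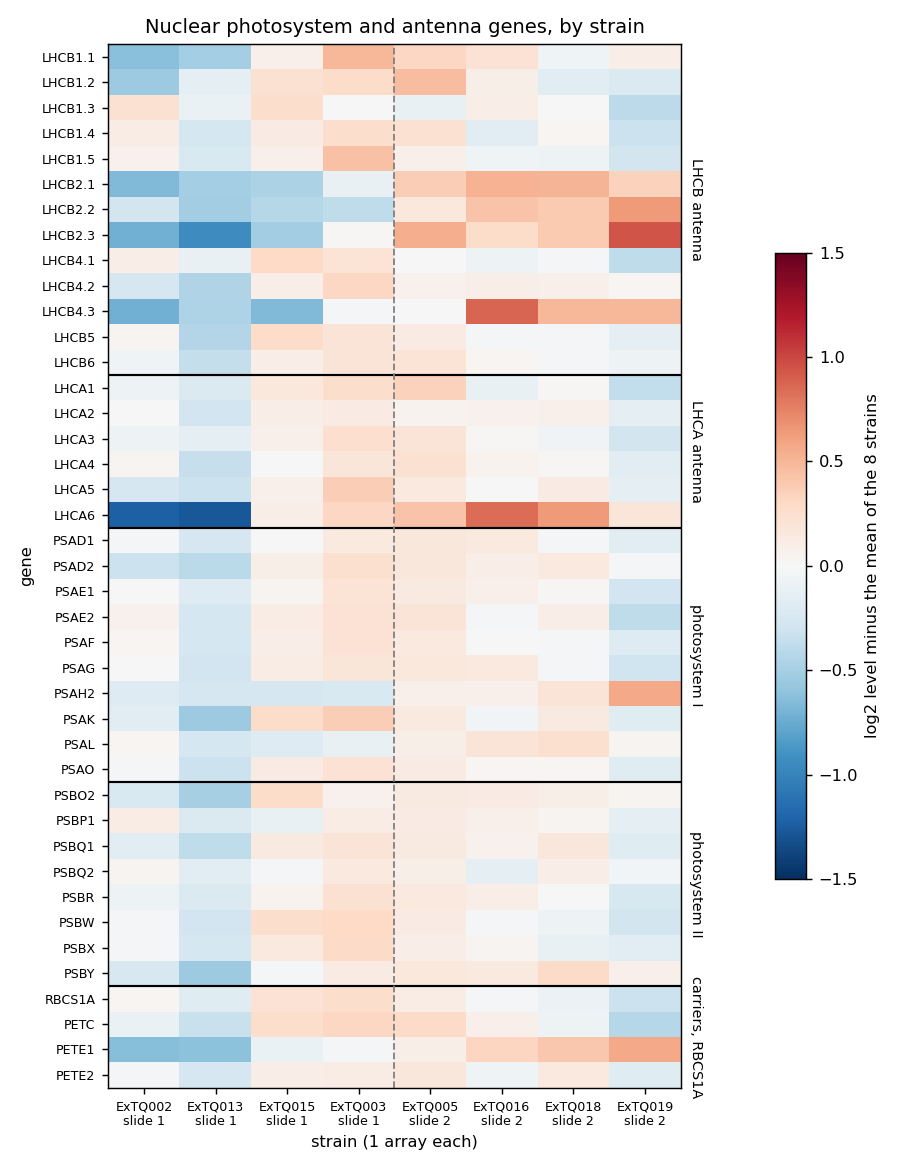
Heat map of the 41 members (rows, by role) in the 8 strains (columns, 1 array each), coloured by the log2 level minus the gene's mean over the strains. ExTQ013 is blue in every row, and the strongest colours are those of LHCA6, the LHCB2 genes and LHCB4.3.

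The members shifted together by small amounts. In ExTQ013 all 41 lay below the mean of the other strains, with a median log2 difference of −0.33 and a range of −1.45 to −0.11. In ExTQ005, 40 of 41 lay above it, with a median of 0.16. ExTQ003 had 35 above and the highest median, 0.23, while ExTQ019 had 29 below and a median of −0.19. The other strains had medians of −0.07 in ExTQ002, 0.11 in ExTQ015, 0.08 in ExTQ016 and 0.04 in ExTQ018. The median of all genes tested ran from −0.05 to 0.05 over the strains. Beside them, 149 genes in none of the lists had a mean level of at least 5. Their median difference ran from −0.21 in ExTQ019 to 0.11 in ExTQ003, and was −0.02 in ExTQ013. These 149 genes were dimmer as a group than the members, with a median level in ExTQ013 of 5.60 against 5.86. They are thus not matched to the members in brightness. The 3 roles moved alike in ExTQ013, with medians of −0.40 for the antennae, −0.31 for the core subunits and −0.33 for the carriers and RBCS1A. Members are not replicates of a strain, so these medians carry no test. In whole samples, fewer green cells, a share of other tissue and less of this RNA per cell cannot be told apart.

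How the arrays are scaled bears on these shifts. Before scaling, the members' median log2 intensity was nearly level, from 17.15 in ExTQ013 to 17.37 in ExTQ018, while the 75th percentile of the array ran from 10.84 in ExTQ003 to 11.30 in ExTQ019. Set against the median of all genes under the same treatment of the arrays, the members' median in ExTQ013 was −0.29 as processed here, −0.17 with normexp, −0.14 with quantile normalization and −0.16 with the deposited series values. A constant scaling of an array drops out of this comparison, so the array median and no scaling give the first value again. In ExTQ003 it went from 0.19 to −0.33 with normexp, a background correction, and to −0.04 with quantile normalization. In ExTQ019 it went from −0.14 to 0.14 with the deposited series values. The medians of ExTQ005 ran from −0.01 to 0.26, those of ExTQ002 from −0.06 to 0.10 and those of ExTQ015 from 0.00 to 0.21, and ExTQ016 and ExTQ018 stayed above 0, at 0.16 or less. The lowest and highest strains named for single genes below are those of the levels as scaled here.

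Genes that mark leaf age and flowers also varied between the strains. The 10 senescence genes looked at had median differences of 0.81 in ExTQ002 and 0.84 in ExTQ013, with all 10 above 0 in both, and of −0.38 to 0.04 in the other strains. The summed level of the 7 floral identity genes ran from −0.55 in ExTQ002 and 1.74 in ExTQ013 to 4.45 in ExTQ018, and 5 of the 7 were well above background in ExTQ002 against all 7 in each other strain. No floral gene was called in any strain, and of the senescence genes only SAG15 was called, lower in ExTQ019 (−1.39 ± 0.39, adjusted p = 0.0476, limma). The part of these genes' tissues in the members' shifts was not tested. In ExTQ016 the seed genes OLEO1, SESA2 and SESA3 were called higher (limma, adjusted p = 0.00101, 0.00173 and 7.68e-05), and 6 of 6 seed genes were well above background there, against 4 in ExTQ018 and 1 in each other strain. Floral and seed genes were thus read in RNA given as from leaves. The part of seed tissue in the members' levels was not tested. Of tapetum and pollen genes, none of 4 was well above background in ExTQ002 and 2 to 4 were in the others. All 3 guard cell, all 5 vascular and all 3 epidermis markers were well above background on every array, and none was called. In ExTQ013 the 3 epidermis markers were all below the other strains (median −0.45) and the 3 guard cell markers all above (median 0.32). In ExTQ002 the epidermis markers were all below too (median −0.48), and the vascular median ran from −0.68 there to 0.87 in ExTQ016. Over the strains the summed level of the epidermis markers ran from 2.76 to 3.97, that of the guard cell markers from 0.91 to 1.66 and that of the vascular markers from 3.13 to 4.91. The part of these cell types in the members' levels was not tested.

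**Figure D2:**
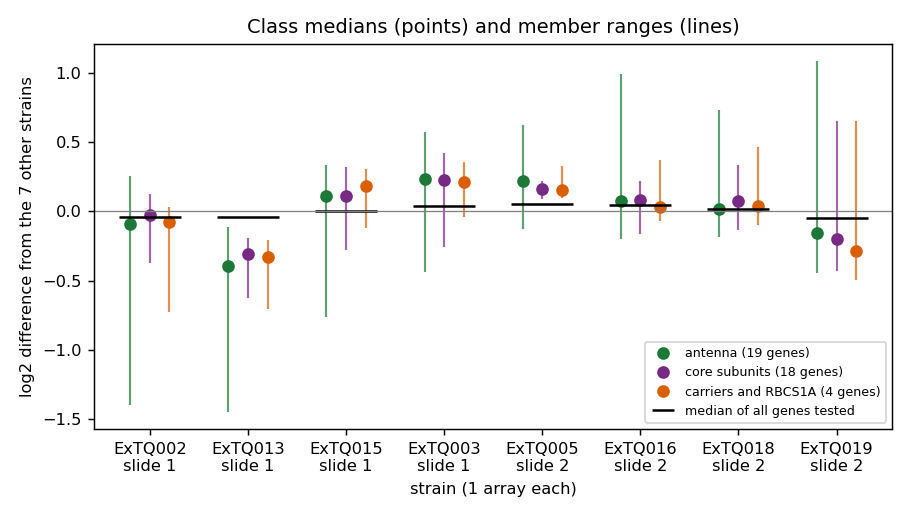
Median log2 difference of each strain from the 7 others (points) and the range over members (lines) for the antennae, the core subunits and the carriers with RBCS1A, with the median of all genes tested as a black bar. The 3 classes lie between −0.40 and −0.31 in ExTQ013, and the antennae have the longest line in every strain.

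The spread over the 8 strains was described by the SD, whose range overlapped between the roles. The median SD was 0.23 for the antennae, 0.19 for the core subunits and 0.24 for the carriers and RBCS1A. The median SD of the members was 0.22 log2 units, against 0.30 for the 18920 genes well above background on all arrays. It was 0.24 for the 194 genes with a mean level of at least 5, members among them. At that level the 28 members had a median SD of 0.20, and the 149 genes in none of the lists had 0.27. Those 149 were dimmer as a group than the members. Over the 50 genes at mean levels of 6 to 7, members among them, the median SD was 0.23. None of the 18 core subunits had an SD above the median of all genes, and the largest was 0.30, for PSAK. Among the antennae 7 of 19 did, and of the carriers 1 of 4. With no scaling between the arrays the members' median SD was 0.13. The 28 members with a mean level of at least 5 had SDs of up to 0.39, and the 13 dimmer ones of 0.18 to 0.81. Of these 13, 7 are antenna genes, 5 are core subunits and 1 is PETE1, so role and dimness overlap.

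LHCA6 had the largest SD, at 0.81, followed by LHCB2.3 at 0.67, LHCB4.3 at 0.59, LHCB2.1 at 0.50 and LHCB2.2 at 0.45. All 5 are antenna genes, and none of their probes is among the bright ones. The smallest SD was that of PSBQ2, at 0.11, then PSBP1 at 0.13, LHCA2 at 0.14, PSAD1 at 0.15 and PETE2 at 0.16. For PSBQ2 the lowest, median and highest level over the strains were 5.37, 5.55 and 5.69, so that its outermost strains differed by 0.32 log2 units.

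**Figure D3:**
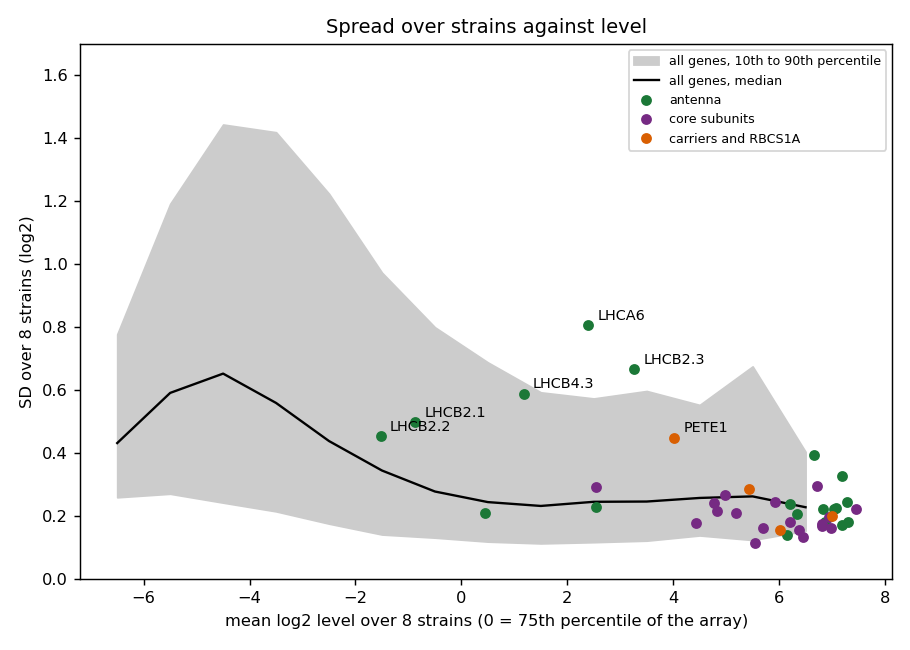
SD over the 8 strains (log2) against mean log2 level for the members by role, over the median and the 10th to 90th percentile of all genes well above background on all arrays, in bins of 1 level unit with at least 20 genes. Core subunits lie near or under the black median, and LHCA6, LHCB2.3 and PETE1 lie far above the bulk of the members.

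The outer antenna of photosystem II is built of trimers of LHCB1, LHCB2 and LHCB3. LHCB1, the most abundant of them, is made from 5 nearly identical genes, and a probe for 1 copy may also catch RNA of another. Since probe sequences were not used here, the values are those of the probes as named. LHCB1.1 (AT1G29920) read 6.03 in ExTQ002, 6.15 in ExTQ013, 6.74 in ExTQ015, 7.16 in ExTQ003, 6.97 in ExTQ005, 6.88 in ExTQ016, 6.59 in ExTQ018 and 6.76 in ExTQ019. LHCB1.2 (AT1G29910) read 6.64 in ExTQ002, 7.05 in ExTQ013, 7.41 in ExTQ015, 7.46 in ExTQ003, 7.65 in ExTQ005, 7.27 in ExTQ016, 7.02 in ExTQ018 and 6.97 in ExTQ019. Both were lowest in ExTQ002, and the slides overlapped. LHCB1.4 (AT2G34430) had levels of 7.18 in ExTQ002, 6.81 in ExTQ013, 7.19 in ExTQ015, 7.34 in ExTQ003, 7.29 in ExTQ005, 6.90 in ExTQ016, 7.09 in ExTQ018 and 6.74 in ExTQ019. For LHCB1.5 (AT2G34420) they were 7.09 in ExTQ002, 6.80 in ExTQ013, 7.11 in ExTQ015, 7.47 in ExTQ003, 7.10 in ExTQ005, 6.97 in ExTQ016, 6.95 in ExTQ018 and 6.75 in ExTQ019. The latter pair was lowest in ExTQ019 and highest in ExTQ003, again with the slides overlapping. In ExTQ003 LHCB1.5 was at an unadjusted p of 0.0361, with a log2 difference of 0.50 ± 0.20 (SE; limma, adjusted p = 0.999). LHCB1.3 (AT1G29930) read 0.67 in ExTQ002, 0.34 in ExTQ013, 0.70 in ExTQ015, 0.45 in ExTQ003, 0.33 in ExTQ005, 0.54 in ExTQ016, 0.44 in ExTQ018 and 0.05 in ExTQ019. In ExTQ002, where LHCB1.1 and LHCB1.2 were at their lowest, it was above the mean of the others by 0.26. It was lowest in ExTQ019, with a difference of −0.45 ± 0.17 (SE; limma, adjusted p = 0.126).

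LHCB2 is the trimer protein whose phosphorylation lets the antenna move between the photosystems. The levels of LHCB2.1 (AT2G05100) were −1.53 in ExTQ002, −1.38 in ExTQ013, −1.34 in ExTQ015, −0.99 in ExTQ003, −0.50 in ExTQ005, −0.35 in ExTQ016, −0.36 in ExTQ018 and −0.52 in ExTQ019. Those of LHCB2.2 (AT2G05070) were −1.80 in ExTQ002, −2.04 in ExTQ013, −1.95 in ExTQ015, −1.90 in ExTQ003, −1.36 in ExTQ005, −1.10 in ExTQ016, −1.13 in ExTQ018 and −0.89 in ExTQ019. In both genes all slide 1 strains were below all slide 2 strains. LHCB2.3 (AT3G27690) read 2.54 in ExTQ002, 2.33 in ExTQ013, 2.75 in ExTQ015, 3.29 in ExTQ003, 3.81 in ExTQ005, 3.54 in ExTQ016, 3.66 in ExTQ018 and 4.21 in ExTQ019. It too had the slide 1 strains lowest, with ExTQ003 nearest to slide 2 and ExTQ019 above all. The difference of ExTQ019 from the 7 others was 1.08 ± 0.58 (SE; limma, adjusted p = 0.246) and that of ExTQ013 was −1.07 ± 0.58 (SE; limma, adjusted p = 1.00), where the SD of the others was 0.59. Against the 3 other strains of slide 2 alone, the difference of ExTQ019 was 0.54 (adjusted p = 0.105).

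LHCB4, LHCB5 (AT4G10340) and LHCB6 (AT1G15820) are single antenna proteins that join the trimers to the core. LHCB4.1 (AT5G01530) read 6.42 in ExTQ002, 6.21 in ExTQ013, 6.62 in ExTQ015, 6.53 in ExTQ003, 6.34 in ExTQ005, 6.25 in ExTQ016, 6.30 in ExTQ018 and 5.95 in ExTQ019. It was lowest in ExTQ019, with a difference there of −0.43 ± 0.18 (SE; limma, adjusted p = 0.142). LHCB4.2 (AT3G08940) read 5.96 in ExTQ002, 5.75 in ExTQ013, 6.31 in ExTQ015, 6.52 in ExTQ003, 6.27 in ExTQ005, 6.31 in ExTQ016, 6.28 in ExTQ018 and 6.24 in ExTQ019. It was lowest in ExTQ013, where its difference was −0.52 ± 0.21 (SE; limma, adjusted p = 1.00). The third copy, LHCB4.3 (AT2G40100), varied more. It read 0.46 in ExTQ002, 0.72 in ExTQ013, 0.52 in ExTQ015, 1.17 in ExTQ003, 1.19 in ExTQ005, 2.05 in ExTQ016, 1.68 in ExTQ018 and 1.68 in ExTQ019. ExTQ002, ExTQ015 and ExTQ013 were low and ExTQ016 was high, and the slides met almost at one level, between 1.17 in ExTQ003 and 1.19 in ExTQ005. LHCB5 had a lowest, median and highest level of 6.40, 6.85 and 7.11 and was lowest in ExTQ013, by −0.50 ± 0.20 (SE; limma, adjusted p = 1.00). LHCB6 had 6.94, 7.30 and 7.50, again with ExTQ013 the lowest. Both kept within about 0.7 log2 units over all strains.

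The antenna of photosystem I is a belt of LHCA1 to LHCA4. Their lowest, median and highest levels were 6.91, 7.25 and 7.63 for LHCA1 (AT3G54890), 6.91, 7.17 and 7.43 for LHCA3 (AT1G61520) and 6.53, 6.90 and 7.10 for LHCA4 (AT3G47470). LHCA2 (AT3G61470), among the steadiest members, read 6.15 in ExTQ002, 5.86 in ExTQ013, 6.24 in ExTQ015, 6.27 in ExTQ003, 6.19 in ExTQ005, 6.20 in ExTQ016, 6.22 in ExTQ018 and 6.01 in ExTQ019. None of the 4 spanned more than 0.72 log2 units. LHCA1 and LHCA3 were lowest in ExTQ019, and LHCA2 and LHCA4 in ExTQ013. LHCA5 (AT1G45474) and LHCA6 (AT1G19150) are scarce relatives of the belt that help to link photosystem I to the NDH complex, which takes part in cyclic electron flow. LHCA5 had 2 probes, of which the brighter stands for the gene, with 2.22, 2.59 and 2.91 (SD 0.23), and the dimmer probe had an SD of 0.28.

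LHCA6 was the member that differed most between strains. It read 1.17 in ExTQ002, 1.13 in ExTQ013, 2.50 in ExTQ015, 2.71 in ExTQ003, 2.83 in ExTQ005, 3.24 in ExTQ016, 3.04 in ExTQ018 and 2.58 in ExTQ019. ExTQ002 and ExTQ013 lay more than 1 log2 unit below every other strain, and the other 6 ran from 2.50 to 3.24. The difference from the 7 others was −1.40 ± 0.67 (SE; limma, adjusted p = 0.570) in ExTQ002 and −1.45 ± 0.66 (SE; limma, adjusted p = 1.00) in ExTQ013. Each of these strains is in the spread that the other is tested against. Each strain was left out in turn, and the fits given next are those without the other low strain. They were picked by the LHCA6 levels themselves, so their smaller SE and adjusted p-values are not read as tests. With ExTQ013 left out, LHCA6 in ExTQ002 was at −1.64 ± 0.30 (SE; limma, adjusted p = 0.0611), and with ExTQ002 left out, LHCA6 in ExTQ013 was at −1.68 ± 0.30 (SE; limma, adjusted p = 0.334). In the related LHCA5 no such step was seen. Its brighter probe was lowest in the same strains, with 2.29 in ExTQ002 and 2.22 in ExTQ013 against 2.41 in ExTQ019, the next lowest. Its dimmer probe read 0.49 in ExTQ013, 0.54 in ExTQ019 and 0.60 in ExTQ002.

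Among the photosystem I subunits, PSAD and PSAE form the stromal side where ferredoxin docks. PSAD1 (AT4G02770) read 6.34 in ExTQ002, 6.12 in ExTQ013, 6.38 in ExTQ015, 6.52 in ExTQ003, 6.54 in ExTQ005, 6.52 in ExTQ016, 6.34 in ExTQ018 and 6.20 in ExTQ019. PSAD2 (AT1G03130) read 4.45 in ExTQ002, 4.37 in ExTQ013, 4.86 in ExTQ015, 5.02 in ExTQ003, 4.95 in ExTQ005, 4.88 in ExTQ016, 4.92 in ExTQ018 and 4.76 in ExTQ019. Both were lowest in ExTQ013, and ExTQ002 was low in PSAD2 but not in PSAD1. The levels of PSAE1 (AT4G28750) were 5.70 in ExTQ002, 5.50 in ExTQ013, 5.74 in ExTQ015, 5.89 in ExTQ003, 5.82 in ExTQ005, 5.77 in ExTQ016, 5.71 in ExTQ018 and 5.40 in ExTQ019. Those of PSAE2 (AT2G20260) were 4.90 in ExTQ002, 4.57 in ExTQ013, 4.94 in ExTQ015, 5.05 in ExTQ003, 5.02 in ExTQ005, 4.81 in ExTQ016, 4.94 in ExTQ018 and 4.46 in ExTQ019. In both ExTQ019 was lowest and ExTQ003 highest. The plastocyanin-binding subunit PSAF (AT1G31330) had a lowest, median and highest level of 6.73, 7.0 and 7.20, and PSAG (AT1G55670), which holds the antenna belt, had 6.65, 7.0 and 7.13. All 6 were highest in ExTQ003 or ExTQ005. PSAK (AT1G30380), at the far end of the belt, had the largest spread of the core, with 6.17, 6.76 and 7.08, and was at its lowest in ExTQ013, by −0.62 ± 0.25 (SE; limma, adjusted p = 1.00). The remaining subunits, PSAH2 (AT1G52230), PSAL (AT4G12800) and PSAO (AT1G08380), lie on the side where LHCB trimers dock to photosystem I. PSAO had 6.50, 6.84 and 7.03 and PSAL 4.16, 4.46 and 4.66, and PSAL was highest in ExTQ018.

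The levels of PSAH2 were 2.35 in ExTQ002, 2.29 in ExTQ013, 2.3 in ExTQ015, 2.32 in ExTQ003, 2.62 in ExTQ005, 2.62 in ExTQ016, 2.74 in ExTQ018 and 3.11 in ExTQ019. The 4 slide 1 strains lay close together, all slide 2 strains were above them, and ExTQ019 was above the other slide 2 strains. In ExTQ019 its difference was 0.65 ± 0.21 (SE; limma, adjusted p = 0.0765), while the median over the 18 core subunits was −0.20, with PSAH2, PSBY (AT1G67740), PSAL and PSBO2 (AT3G50820) above the other strains and 14 below. Over the alternatives the adjusted p ran from 0.0422, with slide as a block and a difference of 0.45, to 0.226 with normexp.

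The extrinsic subunits PSBO, PSBP and PSBQ of photosystem II shield the oxygen-evolving cluster. PSBO2 had a lowest, median and highest level of 5.43, 6.0 and 6.20, and its value in ExTQ013 was −0.56 ± 0.20 (SE; limma, adjusted p = 1.00). PSBP1 (AT1G06680) read 6.56 in ExTQ002, 6.24 in ExTQ013, 6.33 in ExTQ015, 6.56 in ExTQ003, 6.57 in ExTQ005, 6.52 in ExTQ016, 6.49 in ExTQ018 and 6.32 in ExTQ019. ExTQ013, ExTQ019 and ExTQ015 were low, within 0.33 log2 units of the highest strain. PSBQ1 (AT4G21280) read 5.04 in ExTQ002, 4.82 in ExTQ013, 5.34 in ExTQ015, 5.39 in ExTQ003, 5.34 in ExTQ005, 5.26 in ExTQ016, 5.37 in ExTQ018 and 5.02 in ExTQ019. PSBQ2 (AT4G05180), the steadiest member, read 5.58 in ExTQ002, 5.37 in ExTQ013, 5.52 in ExTQ015, 5.69 in ExTQ003, 5.62 in ExTQ005, 5.39 in ExTQ016, 5.64 in ExTQ018 and 5.50 in ExTQ019. Both PSBQ genes were lowest in ExTQ013 and highest in ExTQ003. PSBR (AT1G79040), which helps to hold the extrinsic subunits, had a lowest, median and highest level of 6.57, 6.84 and 7.04. PSBW (AT2G30570), a small subunit that steadies the complex of core and antenna, had 7.15, 7.42 and 7.75, and the small subunit PSBX (AT2G06520) had 5.95, 6.22 and 6.50. PSBY, also a small membrane subunit, had 4.43, 5.07 and 5.26 and the lowest value of any photosystem II subunit relative to the others in ExTQ013, −0.62 ± 0.21 (SE; limma, adjusted p = 1.00). Of the 8 photosystem II subunits, 7 were lowest in ExTQ013 and PSBR was lowest in ExTQ019. In all, 14 of the 18 core subunits were lowest in ExTQ013 and 4 in ExTQ019, and 12 of the 18 were highest in ExTQ003. This order depends on the scaling. With no scaling the core median was −0.069 in ExTQ013 but 0.050 in ExTQ019 and −0.060 in ExTQ003.

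RBCS1A (AT1G67090), a small subunit of the carbon-fixing enzyme Rubisco, had a lowest, median and highest level of 6.68, 7.0 and 7.26. PETC (AT4G03280), the Rieske iron-sulphur protein of the cytochrome b6f complex, had 5.0, 5.44 and 5.75. Both were lowest in ExTQ019 and highest in ExTQ003. Plastocyanin, the copper protein that feeds photosystem I, has 2 genes that behaved differently. PETE2 (AT1G20340) read 5.99 in ExTQ002, 5.77 in ExTQ013, 6.12 in ExTQ015, 6.13 in ExTQ003, 6.19 in ExTQ005, 5.96 in ExTQ016, 6.16 in ExTQ018 and 5.84 in ExTQ019. PETE1 (AT1G76100) read 3.38 in ExTQ002, 3.40 in ExTQ013, 3.91 in ExTQ015, 3.99 in ExTQ003, 4.11 in ExTQ005, 4.34 in ExTQ016, 4.43 in ExTQ018 and 4.59 in ExTQ019. ExTQ002 and ExTQ013 were low in PETE1 and ExTQ019 was highest, whereas in PETE2 ExTQ019 was the second lowest strain. The difference of PETE1 in ExTQ019 was 0.65 ± 0.41 (SE; limma, adjusted p = 0.326).

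Antenna and core genes were then compared within each array, where a constant scaling of the array drops out. The median difference of the 19 antenna genes minus that of the 18 core genes was −0.09 in ExTQ013, −0.07 in ExTQ002, −0.05 in ExTQ018, −0.01 in ExTQ016, 0.00 in ExTQ015, 0.01 in ExTQ003, 0.04 in ExTQ019 and 0.06 in ExTQ005. No strain had the whole antenna up or down against the core by as much as 0.1 log2 units. The 13 LHCB genes alone did, with −0.26 in ExTQ002, −0.19 in ExTQ013 and 0.11 in ExTQ019, and gave −0.07 to 0.03 in the other strains. The 6 LHCA genes alone gave −0.06 to 0.08 over the strains. With normexp the value of the 19 antenna genes against the core was −0.31 in ExTQ002 and 0.12 in ExTQ003.

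The bright antenna genes kept near the core, and the dim ones as a group did not. The 12 with a mean level of at least 5 gave −0.10 to 0.07 against the core over the strains. The other 7, LHCB1.3, LHCB2.1, LHCB2.2, LHCB2.3, LHCB4.3, LHCA5 and LHCA6, ran from −0.73 in ExTQ002 through −0.60 in ExTQ015, −0.28 in ExTQ013, −0.22 in ExTQ003, 0.02 in ExTQ005, 0.38 in ExTQ018 and 0.40 in ExTQ016 to 0.60 in ExTQ019. In this median all slide 1 strains were lower than all slide 2 strains. Not all of the 7 shared this, as slide 2 minus slide 1 was 0.07 for LHCA5 and −0.20 for LHCB1.3. Most core genes, 13 of 18, are bright. Dimmer members outside the antenna gave 0.70 (PETE1), 0.46 (PSAH2), 0.34 (PSBY), 0.27 (PSAL), 0.20 (PSAD2) and −0.06 (PSAE2), so the rise was not particular to antenna genes. The level that divides the antenna genes was chosen after their values were seen, so the division carries no test. Relative to the core median of its own array, LHCA6 ranged over 1.97 log2 units, LHCB2.3 over 1.82 and LHCB4.3 over 1.56, while PSAO ranged over 0.08, PSBR over 0.11 and LHCA2 over 0.13.

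Copies of a family were compared by the log2 ratio of their levels, centred on its mean over the 8 strains. The least variation was between PSAE1 and PSAE2, whose ratio ranged over 0.19 log2 units. PSBQ1 and PSBQ2 ranged over 0.41, PSAD1 and PSAD2 over 0.47, and PETE1 and PETE2 over 1.36. The ratio of PETE1 to PETE2 was lowest in ExTQ002, at −0.61, and highest in ExTQ019, at 0.75. The 3 pairs of core subunits with both copies among the members thus kept their ratio within 0.47 log2 units. Pairs of a core member and a relative outside the 41 ranged over more, as given with the relatives.

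In the LHCB1 family the 10 pairs ranged over 0.32 to 1.35 log2 units. In the reference gene table (TAIR10.1), LHCB1.4 and LHCB1.5 are neighbours, and they varied least against each other. LHCB1.1, LHCB1.2 and LHCB1.3 lie side by side elsewhere, and the ratio of LHCB1.1 to LHCB1.3 varied most, from −0.85 in ExTQ002 to 0.49 in ExTQ003, and that of LHCB1.1 to LHCB1.2 ranged over 0.69. In ExTQ002 both LHCB1.1 and LHCB1.2 were low against all 3 other copies, by −0.60 for LHCB1.2 against LHCB1.5 and −0.74 for LHCB1.1 against LHCB1.4.

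LHCB2.1 and LHCB2.2, which are neighbours too, ranged over 0.65 against each other. Against LHCB2.3, on another chromosome, they ranged over 1.03 and 0.85. The 3 LHCB4 genes lie on different chromosomes. LHCB4.1 and LHCB4.2 ranged over 0.76, and LHCB4.1 and LHCB4.3 over 1.91, the widest of the 20 pairs, which is 3.75-fold between ExTQ016 and ExTQ015. A ratio between probes shows unequal change and not which copy changed.

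**Figure D4:**
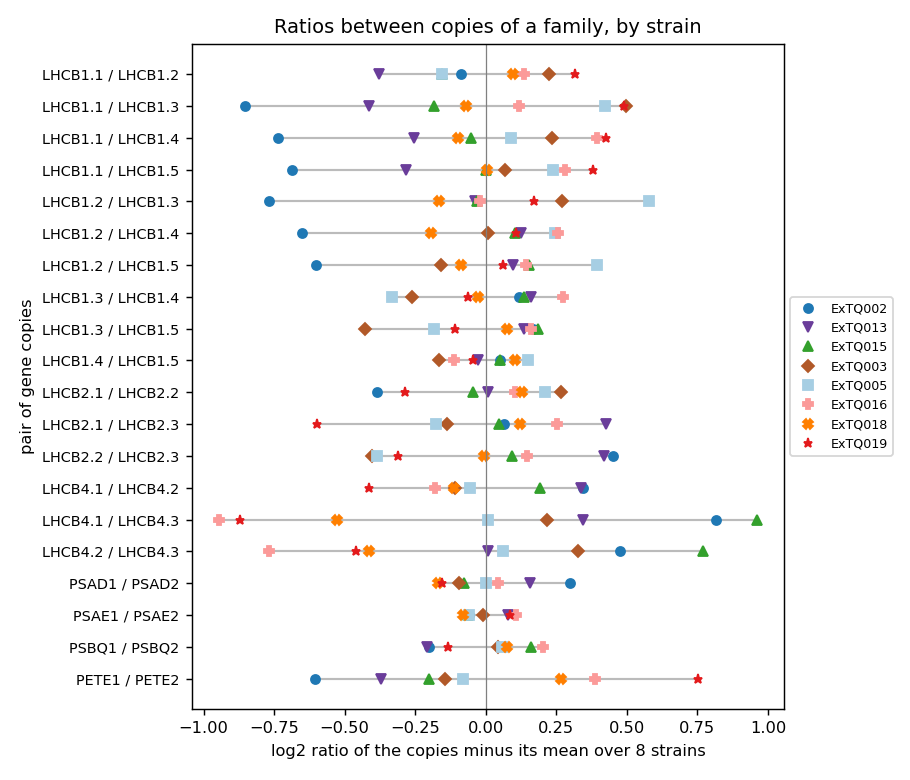
Log2 ratio of 2 gene copies minus its mean over the strains (horizontal axis) for the 20 pairs of copies in 7 families, with a symbol for each strain. The PSAE pair spans 0.19 log2 units and the pair of LHCB4.1 and LHCB4.3 spans 1.91, with ExTQ016 and ExTQ015 at its ends.

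The slides divided some of the members. Between slide 2 and slide 1, 0 of 41 members were called, with 0% of all genes and 10.1% at an unadjusted p under 0.05 (limma, smallest adjusted p over all genes tested 0.372). At an unadjusted p under 0.05 there were 8 members, all higher on slide 2, where 6.17% of all genes were. For 7 members every slide 2 strain was above every slide 1 strain, where 3.74% of all genes had this order and 3.36% had the reverse. No member had the reverse.

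Of the 8, LHCB2.1 had a mean level of −1.31 ± 0.23 on slide 1 and −0.43 ± 0.09 on slide 2 (SD, n = 4 each), a difference of 0.88 ± 0.14 (SE). LHCB2.2 had −1.92 ± 0.10 on slide 1 and −1.12 ± 0.19 on slide 2. LHCB2.3 had 2.73 ± 0.41 on slide 1 and 3.81 ± 0.29 on slide 2, a difference of 1.08 ± 0.24. The 3 LHCB2 genes thus had their slides apart by 0.80 to 1.08 log2 units. Whether a probe for 1 of these copies also catches RNA of another was not checked, so they may not be 3 separate readings. The differences of the other antenna genes were 0.93 ± 0.23 for LHCB4.3 and 1.04 ± 0.41 for LHCA6, whose slides overlapped. PETE1 had 0.70 ± 0.19, PSAH2 had 0.46 ± 0.14 and PSAL had 0.27 ± 0.11. In the other 33 members the slides differed by 0.34 log2 units or less in size, and the slides overlapped in all of these. Since slide 1 also held ExTQ002 and ExTQ013, with their floral and senescence genes as above, what is common to a slide and what is common to its plants cannot be told apart.

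**Figure D5:**
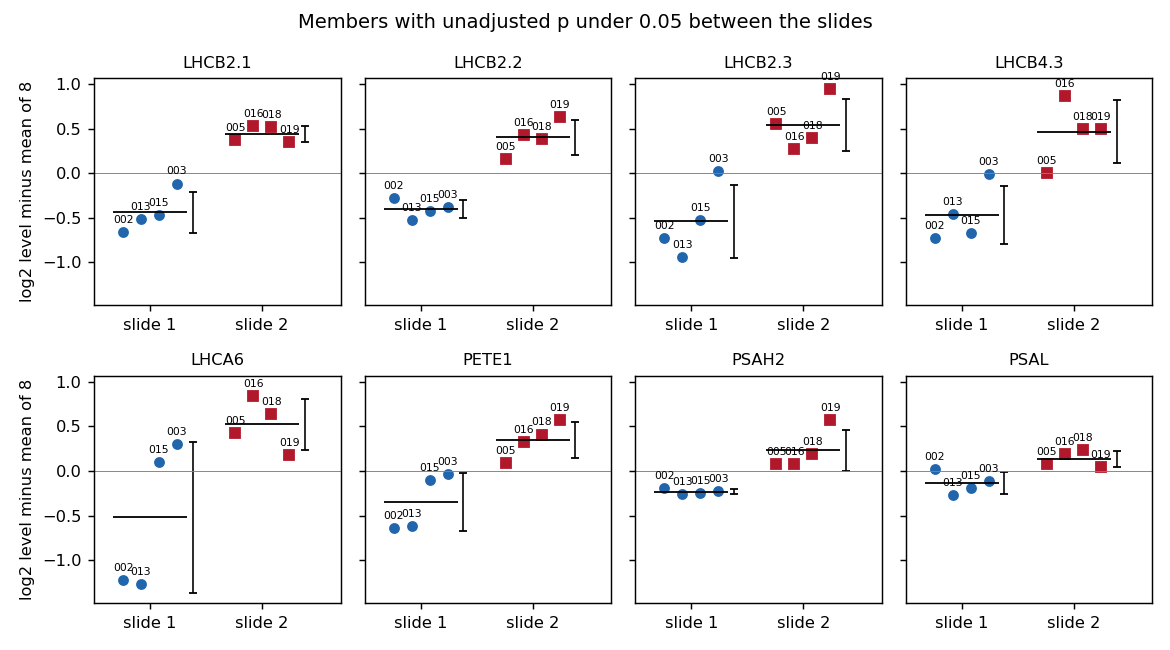
Log2 level minus the mean of the 8 strains for the 8 members with an unadjusted p under 0.05 between the slides, with points for strains, marked by the last digits of their names, and black lines for slide means with the SD beside them. In LHCA6 the points of slide 1 split, with ExTQ002 and ExTQ013 at the bottom.

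Genes close to the members differed from them in ExTQ019. Of 9 relatives outside the 41, 3 fell there, PSAH1 by 1.18 ± 0.17 (SE), PSAN by 1.08 ± 0.22 and RBCS2B by 1.44 ± 0.34 on the log2 scale (limma, adjusted p = 0.00564, 0.0162 and 0.0287). PSBO1 (−0.93 ± 0.18) and LHCB3 (−0.83 ± 0.20) had an adjusted p of 0.0146 and 0.0327 and missed the size of 1. The differences of PSBS, LHCB7, RBCS1B and RBCS3B were 0.31, 0.12, −0.04 and −0.29, and none passed the test. No relative was called in another strain.

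In 3 of 5 pairs of a member and a relative, ExTQ019 lay outside the other strains. The centred log2 ratio of PSAH2 to PSAH1 was 1.6 in ExTQ019 and −0.35 to −0.11 in the other strains. That of PSBO2 to PSBO1 was 0.85 against −0.33 to 0.12, and that of RBCS1A to RBCS2B was 0.94 against −0.45 to 0.23. In the other pairs ExTQ019 lay within the range of the rest. The ratio of RBCS1A to RBCS1B was −0.29 there and ranged over 0.80 log2 units, from −0.40 in ExTQ018 to 0.40 in ExTQ013, and that of RBCS1A to RBCS3B ranged over 0.31. The relatives were picked with their fall in ExTQ019 known, so their count is no independent evidence. By locus number, PSAN (AT5G64040), PSBO1 (AT5G66570) and LHCB3 (AT5G54270) lie in the same part of chromosome 5. PORA (AT5G54190) and TOC1 (AT5G61380), described below, lie there too. RBCS2B (AT5G38420) lies elsewhere on chromosome 5. PSAH1 (AT3G16140), PGK1 (AT3G12780) and LUX (AT3G46640) lie on chromosome 3, and CP12-1 (AT2G47400) and ELF4 (AT2G40080) on chromosome 2. The part of gene position was not tested.

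Other genes of photosynthesis gave few calls. Of the 14 chlorophyll synthesis genes, only PORA, a light-dependent protochlorophyllide reductase, was called, lower in ExTQ019 by 2.66 ± 0.59 (adjusted p = 0.0234, limma). The list had medians of −0.45 in ExTQ002 and −0.46 in ExTQ013, with 0 and 1 of its 14 genes above the other strains, and of 0.34 in ExTQ019. Of the 14 Calvin cycle genes, CP12-1, a small regulator of the cycle, and PGK1, a phosphoglycerate kinase, fell in ExTQ019, by 1.05 ± 0.17 and 1.01 ± 0.20 (adjusted p = 0.00779 and 0.0146, limma). The Calvin cycle median in ExTQ013 was −0.44, with 2 of 14 genes above 0, and that of the 8 electron transport and ATP synthase genes was −0.33, with 0 of 8. ExTQ013 was thus low in these lists as in the members, against a median of all genes of −0.04.

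None of the 8 regulators of photosynthesis genes (GLK1, GLK2, HY5, GNC, CGA1, SIG5, PIF3 and PIF4) was called in any strain. The same held for the 4 antenna-like genes (ELIP1, ELIP2 and the LIL3 genes). Of the 11 clock genes, which time the members' daily rise and fall, 5 were called in ExTQ019, with LHY and RVE8 higher by 1.80 ± 0.27 and 1.84 ± 0.39 and TOC1, LUX and ELF4 lower, TOC1 by 2.05 ± 0.36 (limma, adjusted p = 0.00652, 0.0196 and 0.0103). The members' median in that strain was −0.19. The sources used here do not give the hour of harvest, and its part and that of gene position were not tested.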

How the data were processed

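RNA of 8 strains was measured on 1 one-colour array each, 4 arrays to a slide. The authors extracted the intensity of each spot with Agilent Feature Extraction 11.0.1.1, which per the file headers subtracted background and detrended each array but did not scale arrays to each other. The deposited series values are log2 values, as read from their fit to the arrays, with columns quantile-alike. The submitters' processing notes also name limma. The sources used here give no genome build or annotation for the probes.

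Here log2 processed intensity was set against the 75th percentile of its array, spots marked as outliers were set aside (34 of 37478 probes were left out), spots of a probe were averaged, and the brightest probe stood for a locus. All 41 members matched the reference gene table (TAIR10.1), used for names and neighbours only. Genes passing the background mark on 1 array or more were tested with limma 3.58.1 in R 4.3.3, each strain against the 7 others and slide against slide. The code was tested on simulated data. The share of probes well above background was 61.3% to 67.7% per array. Precision is set by the small number of arrays.

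Every strain value is given for the 5 members with the largest and the 5 with the smallest SD and for members with copies, all relatives are named, and so are up to 3 called genes per other list. The members and lists were chosen with earlier results of these data known. The alternatives were normexp, quantile normalization, array medians, the series values, both filters on dim probes, the mean of probes, trend and robust variance, slide as a block, strains of 1 slide only, each strain left out in turn and, chosen after seeing the data, no scaling.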

Additional observations from a re-analysis of the deposited data

Results flagged for a closer look

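In 91 quantities over the 8 strains (levels, copy ratios and class medians), 15 had 1 strain far from the other 7 by the gap to the nearest strain over the whole range (Dixon's test). Chance flags about 1 in 20 groups, but the relatives and lists were chosen with earlier results known, so the count of 15 is not read against that rate. None of the levels of the 41 members was among them.

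In ExTQ019 the relatives PSAH1, PSAN and PSBO1 were far below the nearest strain, at levels of 3.02 against 4.01, 4.88 against 5.65 and 5.94 against 6.59. The Calvin cycle genes PGK1 and CP12-1 were also far below there, at 3.86 against 4.52 and 3.93 against 4.84. Of the clock genes, TOC1 was far below at −0.72 against 0.81, LUX at 0.91 against 2.38 and ELF4 at 0.0722 against 1.23. LHY was far above at −2.48 against −3.82 and RVE8 at −0.92 against −2.35.

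Ratios of members to relatives set ExTQ019 apart as well. The centred log2 ratio of PSAH2 to PSAH1 was 1.6 against −0.11 in the nearest strain, and that of PSBO2 to PSBO1 was 0.85 against 0.12.

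In ExTQ016 the seed genes SESA3, SESA2 and OLEO1 had levels of 5.13, 0.88 and 1.52. SESA3 and SESA2 were well above background on that array alone, and OLEO1 on 2 arrays.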

How the results depend on the processing

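The count of members called was 0 for every strain and between the slides under all alternatives run, and the members' median SD (0.22 log2 units) ran from 0.13 to 0.24. Under the alternatives, 397 of 432 class medians and 129 of 144 antenna-minus-core values moved by less than the spread, and 314 of 314 values of single members kept their direction and stayed uncalled, though with slide as a block the adjusted p of PSAH2 in ExTQ019 passed 0.05, at 0.0422 (limma), below the size limit. Some of these alternatives could not move a value. Trend and robust variance and the filters leave every median as it is, and the array median and no scaling leave antenna minus core as it is. The counts of unmoved values include these settings. The values that moved follow, and the cause was not tested except where named.

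Scaling by the array median brought the median of all genes to 0.25 in ExTQ002, −0.23 in ExTQ016 and −0.25 in ExTQ018. The antenna, core and carrier medians moved with it, to 0.20, 0.26 and 0.22 in ExTQ002, −0.21, −0.19 and −0.25 in ExTQ016 and −0.25, −0.20 and −0.23 in ExTQ018. With quantile normalization the antenna median was −0.17 in ExTQ013, and the 3 medians were 0.010, 0.0045 and −0.016 in ExTQ003 and 0.13, 0.036 and −0.072 in ExTQ019. With the series values they were −0.049, −0.056 and −0.00013 in ExTQ003 and 0.12, 0.12 and −0.057 in ExTQ019. With no scaling, chosen after seeing the data, they were −0.16, −0.069 and −0.092 in ExTQ013, −0.054, −0.060 and −0.069 in ExTQ003 and 0.089, 0.050 and −0.039 in ExTQ019, and the core median was −0.085 in ExTQ015. With normexp the antenna median was −0.30 in ExTQ002, and in ExTQ003 the core and carrier medians were −0.082 and −0.10.

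The antenna-minus-core value was −0.31 in ExTQ002, −0.012 in ExTQ013 and 0.12 in ExTQ003 with normexp. It was −0.17 in ExTQ002, −0.061 in ExTQ015 and 0.073 in ExTQ016 with the series values, and −0.0084 in ExTQ013, 0.0068 in ExTQ005 and 0.092 in ExTQ019 with quantile normalization. With slide as a block, and within the slide, it was 0.0032 in ExTQ013, 0.063 in ExTQ003 and 0.0051 in ExTQ005.

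Normexp used the median spot signal in place of the mean. No paired analysis was possible because all strains form 1 group.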
